A study of Mus musculus with 18 samples.

Results

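STAT proteins are transcription factors that wait in the cytoplasm until a cytokine binds its receptor. Janus kinases then phosphorylate the receptor and the STAT, which pairs, enters the nucleus and binds DNA. In regulatory T cells (Tregs), IL-2 acts mainly through STAT5, for which the genes *Stat5a* and *Stat5b* encode closely similar proteins. STAT5 is needed for expression of *Foxp3*, the gene that defines the lineage. The other family members serve other cytokines. STAT2 joins IRF9 downstream of type I interferon, STAT3 serves IL-6, IL-10, IL-21 and IL-27, STAT4 serves IL-12, and STAT6 serves IL-4. The 6 genes described here, *Stat2*, *Stat3*, *Stat4*, *Stat5a*, *Stat5b* and *Stat6*, were chosen by name, without use of their levels, from 50600 genes in a table of RNA-seq counts, and each was found once.

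The counts came from FACS-purified Tregs of 18 C57BL/6 mice in 4 groups, and the purpose was to see which genes depend on CD25, the IL-2 receptor α chain encoded by *Il2ra*. Thymic CD25 KO Tregs came from 5 CD25 flox/Foxp3-YFP/Cre mice at 3–4 weeks of age, in which Cre is driven from the *Foxp3* locus, so that deletion begins as Tregs form. These mice had been "cured" of autoimmunity, that is, given WT splenocytes intravenously as newborns, and their controls were 5 Foxp3/RFP reporter mice of matched age. The splenic CD25 KO mice were 4 animals of the genotype CD25 flox/Foxp3eGFP-Cre-ERT2/R26Y, in which tamoxifen activates the *Foxp3*-driven Cre and switches on a YFP label, and the 4 controls were CD25 WT reporter mice that were also given tamoxifen. Tamoxifen was given at 7–10 weeks of age and cells were taken 10–14 days later. Thymic and splenic libraries therefore differed in mouse model, age, treatment and the date in their column headers as well as in tissue, and these cannot be told apart in any comparison between the tissues. Within the thymus, CD25 KO and WT mice also differed in reporter strain, and neither Cre nor a transfer of splenocytes is described for the WT mice. Effects of these cannot be told apart from loss of CD25 in the thymic comparison.

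*Il2ra*, the targeted gene, was lower in every CD25 KO library than in every WT library of the same tissue. Thymic WT mice had 537–702 CPM (read counts normalised to library size) and thymic CD25 KO mice 99.0–291 CPM, with CD25 KO mice 2 and 4 the highest at 291 and 243 CPM. Splenic WT mice had 473–522 CPM and splenic CD25 KO mice 162–202 CPM. Cre removes an exon of *Il2ra* and not the whole gene. The paper reports that transcripts remained at a lower level and lacked this exon, which it shows for peripheral Tregs. Counts over the whole gene therefore do not measure how complete the deletion was. Library totals were between 17239774 and 23993674 counts for thymic and between 25258341 and 32639570 for splenic mice, and no STAT gene had fewer than 684 counts in any library. Markers of Treg identity (*Foxp3*, *Ctla4*, *Ikzf2*, *Tnfrsf18*, *Cd4* and *Cd3e*) summed to 2707–3694 CPM over all libraries. Of the other cells a Treg sort could hold, B cell markers summed to at most 19.98 CPM, myeloid markers to 28.6 CPM, NK cell markers to 5.60 CPM (given by group beside the STAT4 targets), erythroid markers to 30.9 CPM and thymic epithelial markers to 12.2 CPM. Markers of CD8 and double positive thymocytes reached 155 CPM in thymic WT mouse 4 and 84.2 CPM in thymic CD25 KO mouse 5, and stayed at or below 10.5 CPM in the spleen.

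The 6 genes lie on 3 chromosomes of GRCm38, in clusters. *Stat5b* (chr11:100780731-100850724, minus strand), *Stat5a* (chr11:100859351-100885169, plus strand) and *Stat3* (chr11:100885098-100939540, minus strand) are neighbours: 8626 bases separate *Stat5b* from *Stat5a*, and the 3′ ends of *Stat5a* and *Stat3* overlap by 72 bases. *Stat6* (chr10:127642986-127660957, plus strand) and *Stat2* (chr10:128270559-128292849, plus strand) are 609601 bases apart, and *Stat4* (chr1:51987148-52107189, plus strand) lies alone. *Stat6* overlaps *Nab2* on the opposite strand. No source used here states whether counting used the strand, so reads from the overlapping ends cannot be assigned with certainty.

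The sequences bear on how well *Stat5a* and *Stat5b* can be counted apart. Translated from the GENCODE M21 transcripts, the encoded proteins have 797 and 786 residues and share 676 of 811 aligned positions (83.4%), against 46.3% for the next most similar pair, STAT3 and STAT4. Their coding sequences hold a run of 324 bases that is identical in both genes, in coding positions 571–894 of each. In *Stat5a* the run covers 3 exonic blocks (chr11:100874023-100874133, chr11:100874339-100874490 and chr11:100874923-100874983). In *Stat5b* it covers chr11:100798591-100798701, chr11:100798234-100798385 and chr11:100797741-100797801. The first block of the run, 111 bases that are the same letters in both genes, is given in capitals after 20 coding bases in lower case, of which the last differs between the genes.
Stat5a: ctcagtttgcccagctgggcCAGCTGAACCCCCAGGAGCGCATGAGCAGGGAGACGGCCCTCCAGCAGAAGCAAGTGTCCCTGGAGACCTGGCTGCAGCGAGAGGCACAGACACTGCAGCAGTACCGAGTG
Stat5b: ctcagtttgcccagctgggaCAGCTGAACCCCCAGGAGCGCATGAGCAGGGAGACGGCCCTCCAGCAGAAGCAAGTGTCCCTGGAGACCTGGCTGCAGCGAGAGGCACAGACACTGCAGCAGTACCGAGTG
Of all windows of 75 bases in the annotated transcripts, 5.12% of those of *Stat5a* and 6.99% of those of *Stat5b* occur in the other gene, and no other pair of the 6 genes shares any. A single read that falls wholly within such a window cannot be assigned to 1 of the genes from its sequence.

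The likeness extends to an annotated start site of each gene. In RefSeq (GRCm38.p6) *Stat5a*, *Stat5b* and *Stat4* each have 2 annotated starts in the table used and *Stat2*, *Stat3* and *Stat6* have 1. In the 250 bases before a start, a best local alignment of *Stat5a* with *Stat5b* matched 49 of 55 bases (89.1%) without a gap, at chr11:100860418-100860472 (plus strand) and chr11:100822573-100822627 (minus strand). Bases identical in both are in capitals.
Stat5a: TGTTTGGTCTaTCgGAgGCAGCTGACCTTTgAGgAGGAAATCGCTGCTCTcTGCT
Stat5b: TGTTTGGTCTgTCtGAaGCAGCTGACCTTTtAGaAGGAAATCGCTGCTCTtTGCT
The 9 start windows of the 6 genes, each from 250 bases before to 50 after a start, were searched on both strands for 3 binding motifs of STAT complexes. The GAS motif, TTCNNNGAA, bound by most STAT dimers, was found in none of the 9 and in 8.30% of all 32851 windows. The spacing preferred by STAT6, TTCNNNNGAA, was found in 1 of the 9 and in 6.95% of all. The core of the interferon-stimulated response element, GAAANNGAAA, bound by the complex that STAT2 forms with IRF9, was found in 2 of the 9 and in 3.44% of all. The 2 windows are those of *Stat2* itself (printed from chr10:128270256-128270317, plus strand) and of the second start of *Stat4* (chr1:52008123-52008172, plus strand), shown with matches in capitals.
Stat2: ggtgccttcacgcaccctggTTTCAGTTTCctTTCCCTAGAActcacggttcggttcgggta
Stat4: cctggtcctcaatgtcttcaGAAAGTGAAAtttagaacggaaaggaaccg
In the *Stat2* stretch the first capitals are the response element core, read on the minus strand, and the second are the STAT6-type spacing, which reads the same on both strands and does not overlap the first. A match describes the letters only.

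Among WT thymic Tregs, *Stat5b* was the most abundant STAT transcript for its length and *Stat4* the least. To compare genes, CPM were divided by the exonic length in kilobases on 1 scale for all 18 libraries. In thymic WT Tregs *Stat5b* stood at 83.7 ± 4.21 CPM per kilobase (SD, n = 5), followed by *Stat6* at 56.2 ± 3.34, *Stat5a* at 41.7 ± 3.47, *Stat3* at 37.2 ± 2.86, *Stat2* at 20.2 ± 0.917 and *Stat4* at 13.4 ± 1.95. The ranges of *Stat5a* and *Stat3* overlapped, and the other neighbours in this order did not overlap. In splenic WT Tregs *Stat6* (54.3 ± 2.68, n = 4) and *Stat5b* (53.2 ± 0.533) led with overlapping ranges, followed by *Stat3* (34.7 ± 1.88), *Stat4* (26.5 ± 1.28), *Stat5a* (18.8 ± 0.723) and *Stat2* (15.5 ± 1.06), with no other overlap. *Stat5a* thus held the third place among thymic and the fifth among splenic WT Tregs, and *Stat4* the last and the fourth. Among CD25 KO Tregs the order in the thymus was as in WT, from *Stat5b* (79.7 ± 2.84) over *Stat6* (51.9 ± 2.57), *Stat5a* (38.6 ± 3.41), *Stat3* (31.6 ± 0.936) and *Stat2* (18.7 ± 1.95) to *Stat4* (12.1 ± 2.91), where the ranges of the last pair overlapped. In the spleen *Stat5b* (56.6 ± 2.06) and *Stat6* (52.2 ± 2.67) overlapped at the top, followed without overlap by *Stat3* (37.5 ± 1.09), *Stat4* (31.3 ± 1.82), *Stat5a* (19.8 ± 0.388) and *Stat2* (15.1 ± 1.35). With the length of the longest transcript in place of all exons, *Stat5a* stood above *Stat6* in both thymic groups and *Stat6* above *Stat5b* in splenic CD25 KO Tregs, in each case with overlapping ranges. The splenic WT order was then the same, but *Stat5b* overlapped with *Stat3* and *Stat4* with *Stat5a*, so *Stat4* and *Stat5a* were separated only with the length of all exons.

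**Figure D1:**
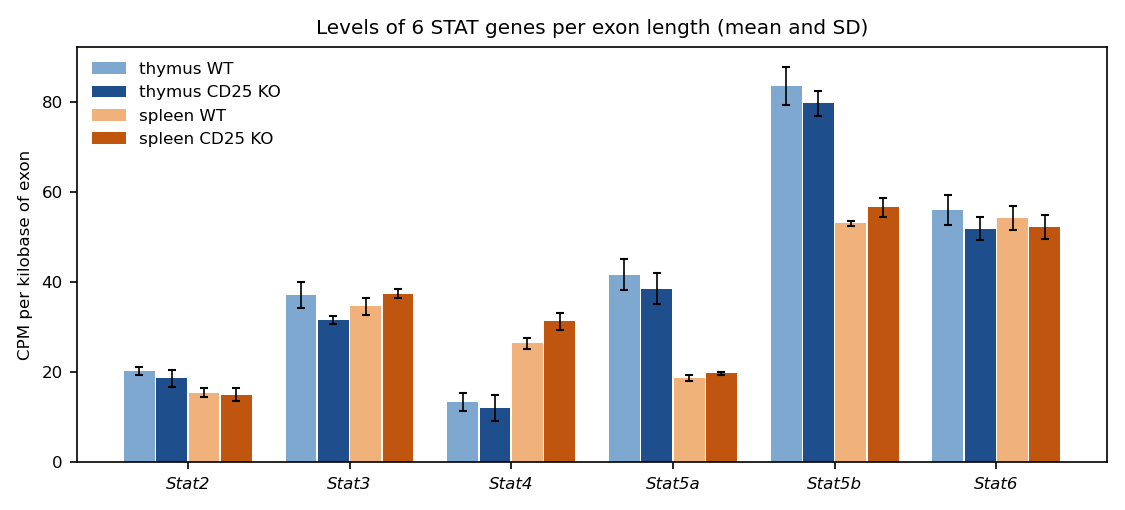
Levels of the 6 STAT genes in CPM per kilobase of exon, as bars of the group mean with the SD over 5 thymic or 4 splenic mice per group. The *Stat5a* and *Stat5b* bars are taller in the thymus, the *Stat4* bars are taller in the spleen, and WT and CD25 KO bars of 1 tissue differ little by comparison.

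Levels of 4 of the 6 genes differed between WT Tregs of the 2 tissues. Between splenic and thymic WT Tregs, edgeR called *Stat2*, *Stat4*, *Stat5a* and *Stat5b* at FDR < 0.01, in a comparison that called 40.4% of all genes tested. *Stat5a* was lower in the spleen by a log2 fold change of -1.15 ± 0.07 (SE; adjusted p = 2.09e-11), *Stat5b* by -0.65 ± 0.05 (adjusted p = 5.34e-10) and *Stat2* by -0.39 ± 0.07 (adjusted p = 0.000183). *Stat4*, which responds to IL-12, was higher in the spleen by 0.98 ± 0.12 (adjusted p = 1.41e-06), and *Stat3* (-0.10, 95% interval -0.22 to 0.01) and *Stat6* (-0.05, -0.16 to 0.07) were not called. Both STAT5 genes were thus more abundant in the thymus, *Stat5a* more so than *Stat5b*. In each library the ratio of *Stat5b* to *Stat5a* counts removes the scaling between libraries. It was 1.54, 1.55, 1.70, 1.44 and 1.57 in thymic WT mice 1–5 and 2.30, 2.18, 2.16 and 2.17 in splenic WT mice 1–4. The groups did not overlap (difference in log2 ratio 0.50; two-sided exact permutation test, p = 0.0159, the smallest that 5 against 4 mice allow; adjusted over 3 ratios, 0.0159). The counts of *Stat4* over *Stat6* also did not overlap, at 0.166–0.234 in thymic WT and 0.398–0.492 in splenic WT Tregs (difference in log2 ratio 1.04, exact permutation p = 0.0159). Of 16 interferon-stimulated genes listed as targets of STAT2 and IRF9, 14 were lower and 1 was higher in splenic than in thymic WT Tregs, with a median log2 fold change of -1.03 against 0.013 over all genes. *Stat2* was lower in the same comparison, and whether these move together for reasons of tissue, age, treatment or model cannot be told apart. In bulk samples, fewer cells of a type and less RNA per cell cannot be told apart either.

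In thymic Tregs lacking CD25, none of the 6 STAT genes was called, and *Stat3* came closest. Of all genes tested, 6.16% were called (2.99% lower, 3.17% higher). For the STAT genes, 1 of 6 had an unadjusted p below 0.05 and DESeq2 called 1, *Stat3* in each case. Over all genes DESeq2 called 2730 of 30028. The share of all genes with an unadjusted p below 0.05 was not counted in any comparison, so such counts are descriptions only. *Stat3*, the mediator of IL-6 and IL-10 family signals, was measured at 356, 400.1, 333, 366 and 351 CPM in WT mice 1–5 and at 316, 315, 297, 319 and 306 CPM in CD25 KO mice 1–5. Every CD25 KO value lay below every WT value. The log2 fold change was -0.22 ± 0.05 (SE), with a 95% interval of -0.34 to -0.10, an unadjusted p of 0.00164 and an adjusted p of 0.0161, which misses the threshold of 0.01. DESeq2 gave an adjusted p of 0.00207 and a fit of all 18 libraries 0.00273, whereas correction for GC content brought the log2 fold change to -0.11 (adjusted p = 0.166). Markers of effector Tregs, a subset of activated cells, moved with it, summing over 11 genes to 301–356 CPM among WT and 166–277 CPM among CD25 KO mice, and their part in the *Stat3* values was not tested.

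The STAT5 genes were measured at close to WT levels in CD25-deficient thymic Tregs. *Stat5b* stood at 478, 503, 450.0, 464 and 469 CPM in WT mice and at 476, 445, 454, 455 and 448 CPM in CD25 KO mice. The log2 fold change was -0.05 (95% interval -0.16 to 0.05; adjusted p = 0.436), and the groups overlapped. *Stat5a* stood at 311, 324, 265, 321 and 298 CPM in WT and at 304, 286, 292, 294 and 242 CPM in CD25 KO mice, with CD25 KO mouse 5 the lowest of the 10. Its log2 fold change was -0.10 (-0.26 to 0.06; adjusted p = 0.346). The lower ends of these intervals correspond to changes of -16.3% for *Stat5a* and -10.3% for *Stat5b*, beside a fitted change of -73.2% for *Il2ra*.

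The remaining genes showed differences within the spread of the mice. *Stat2*, the interferon-specific STAT, stood at 117, 123, 117, 129 and 125.97 CPM in WT and at 112, 108, 102, 115 and 134 CPM in CD25 KO mice, where 4 of 5 lay below all WT mice and mouse 5 above them (log2 fold change -0.10, adjusted p = 0.314). *Stat6*, which relays IL-4, had a log2 fold change of -0.10 (-0.21 to 0.02; adjusted p = 0.199), over a range of 236–271 CPM among WT and 223–253 CPM among CD25 KO mice. *Stat4* was the most variable, at 57.1, 57.1, 48.8, 60.0 and 41.4 CPM in WT and at 47.6, 42.6, 38.4, 45.4 and 68.3 CPM in CD25 KO mice. CD25 KO mouse 5 had the highest *Stat4* value of the 10 thymic mice, and the 4 others of its group lay at or below 47.6 CPM (log2 fold change -0.13, -0.44 to 0.19; adjusted p = 0.560). Without mouse 5 the log2 fold change was -0.28 for *Stat4* (adjusted p = 0.0797) and -0.16 for *Stat2* (adjusted p = 0.0486), and neither was called. All 6 fold changes were negative, with a median of -0.10 against -0.0022 over all genes. Over 16945 genes the thymic log2 fold change tended to be lower at higher GC content (Spearman correlation -0.40). After correction for GC content the fold changes of *Stat5a*, *Stat5b* and *Stat6* were positive (0.06, 0.05 and 0.03).

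**Figure D2:**
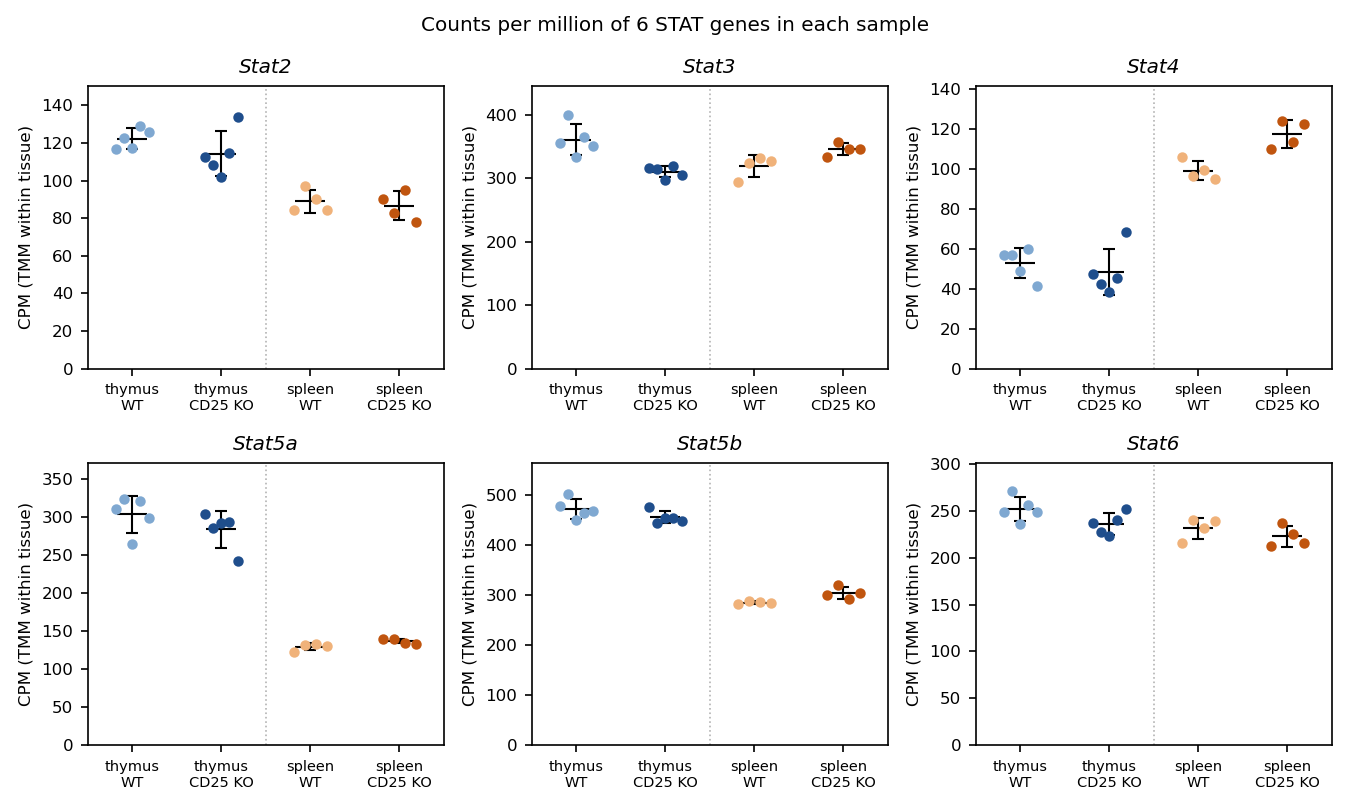
CPM of each STAT gene, with 1 point per mouse and the mean and SD of each group in black. Values were scaled within each tissue, so points are comparable within a tissue. The thymic *Stat3* groups and the splenic *Stat3*, *Stat4*, *Stat5a* and *Stat5b* groups do not overlap between WT and CD25 KO. Thymic CD25 KO mouse 5 stands above its group for *Stat4*.

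In splenic Tregs lacking CD25, *Stat4* was higher and the other 5 STAT genes were not called. The call rate over all genes was 9.45% (5.90% higher, 3.55% lower), and among the STAT genes 2 of 6 had an unadjusted p below 0.05. *Stat4* was measured at 106, 96.4, 99.3 and 95.1 CPM in WT mice 1–4 and at 110.1, 124, 113 and 123 CPM in CD25 KO mice 1–4. Every CD25 KO mouse exceeded every WT mouse. The increase was 18.5% (log2 fold change 0.24 ± 0.06 SE; 95% interval 0.13 to 0.36; adjusted p = 0.00611). This call is close to the threshold: the fold change was 0.21 with an adjusted p of 0.0161 after correction for GC content and 0.24 with 0.276 in a fit of all 18 libraries. Leaving out WT mouse 2, 3 or 4 or CD25 KO mouse 2 or 4 also ended it, with log2 fold changes of 0.22 to 0.24. The effector Treg markers moved with it, summing to 583–698 CPM among WT and 962–1086 CPM among CD25 KO mice. Markers of central Tregs, the resting subset, summed to 2651–3237 CPM among WT and 2391–2658 CPM among CD25 KO mice, and these ranges overlapped. Of the 9 central Treg markers, 4 were called lower and 1 higher. The part of both marker sets in the *Stat4* result was not tested.

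*Stat3*, *Stat5a* and *Stat5b* also lay higher in every splenic CD25 KO mouse than in every WT mouse, without passing the test. The share of all genes whose groups separate in this way was not counted in either tissue, so such separation is a description only. *Stat3* stood at 295, 325, 332 and 328 CPM in WT and at 334, 358, 347 and 346 CPM in CD25 KO mice (log2 fold change 0.12, 0.01 to 0.22; adjusted p = 0.142). *Stat5b* stood at 282, 288, 287 and 284 CPM in WT and at 300.2, 319.9, 293 and 304 CPM in CD25 KO mice (0.09, -0.01 to 0.19; adjusted p = 0.194). *Stat5a* stood at 123, 132, 133 and 131 CPM in WT and at 139, 139, 135 and 134 CPM in CD25 KO mice (0.08, -0.02 to 0.18; adjusted p = 0.305). The highest WT and the lowest CD25 KO mouse lay close together for *Stat3* (332 and 334 CPM), *Stat5b* (288 and 293 CPM) and *Stat5a* (133 and 134 CPM). *Stat2* ranged over 84.2–96.9 CPM among WT and 78.0–95.1 CPM among CD25 KO mice (-0.04; adjusted p = 0.755). *Stat6* ranged over 215–239.8 CPM among WT and 213–237 CPM among CD25 KO mice (-0.05; adjusted p = 0.534). The groups of both genes overlapped.

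*Stat3* was the STAT gene whose response to CD25 loss differed between the tissues. In a fit of all 18 libraries its effect in the spleen exceeded that in the thymus by 0.35 ± 0.08 on the log2 scale (95% interval 0.19 to 0.51; adjusted p = 0.00493), where 6.98% of all genes were called. The effects had opposite signs, -0.22 among thymic and 0.12 among splenic Tregs. The difference fell to 0.27 with upper-quartile normalization (adjusted p = 0.0169) and to 0.25 with GC correction (0.0380), and it was no longer called without thymic CD25 KO mouse 3 (0.32), splenic WT mouse 1 (0.31) or 2 (0.36), or splenic CD25 KO mouse 2 (0.32) or 4 (0.34). *Stat4* had a difference of similar size with a wider interval (0.39, 0.02 to 0.75; adjusted p = 0.134), and without thymic CD25 KO mouse 5 this was 0.54 and was called (adjusted p = 0.00670). The differences of *Stat5a* (0.19), *Stat5b* (0.16), *Stat2* (0.08) and *Stat6* (0.06) were not called, with adjusted p from 0.0991 to 0.654, and those of *Stat2* and *Stat6* changed sign with GC correction.

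**Figure D3:**
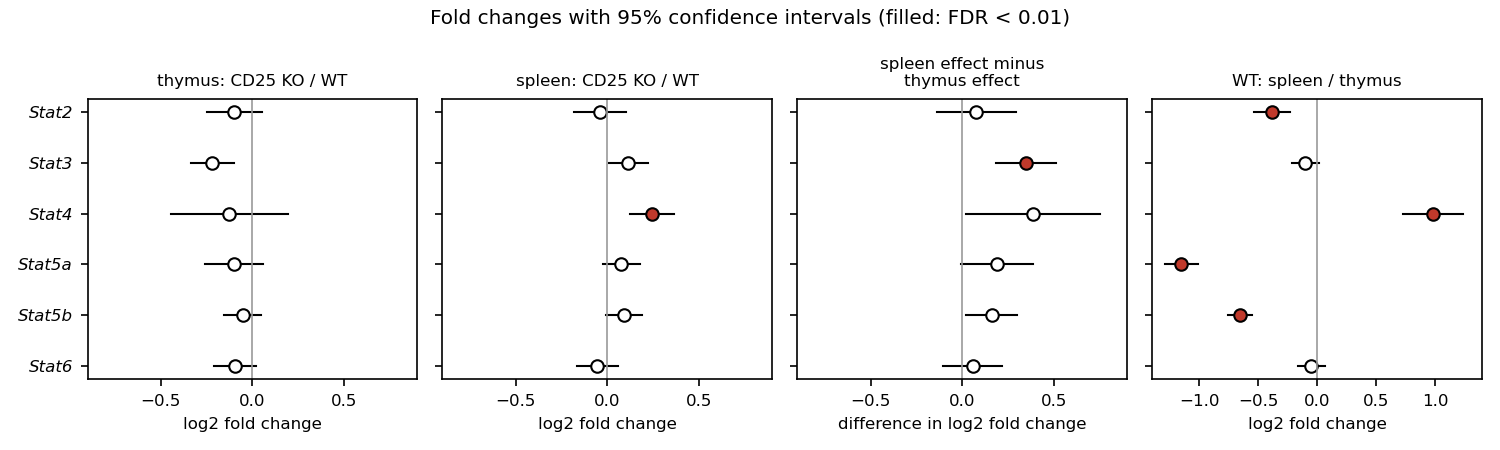
Log2 fold changes of the 6 STAT genes with 95% confidence intervals for CD25 KO against WT in each tissue, for the difference of these effects, and for splenic against thymic WT Tregs, whose axis spans a wider range. Filled points passed FDR < 0.01: *Stat4* in the spleen at 0.24, *Stat3* for the difference at 0.35, and 4 genes between WT tissues.

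Ratios between STAT genes within a library gave a view that does not depend on scaling. The counts of *Stat3* over those of *Stat5a* and *Stat5b* together were 0.452, 0.484, 0.466, 0.466 and 0.458 in thymic WT mice 1–5 and 0.405, 0.431, 0.398, 0.426 and 0.443 in thymic CD25 KO mice 1–5. The groups did not overlap, and the log2 ratio was lower by -0.15 in CD25 KO mice (two-sided exact permutation test, p = 0.00794, the smallest that 5 against 5 allow; adjusted over 6 tests, 0.0476). *Stat3* was thus lower relative to the STAT5 genes too. In the spleen this ratio overlapped between groups (0.728–0.791 in WT and 0.761–0.811 in CD25 KO mice; difference 0.03, exact permutation p = 0.457). The counts of *Stat4* over *Stat6* were 0.492, 0.402, 0.428 and 0.398 in splenic WT and 0.518, 0.522, 0.502 and 0.568 in splenic CD25 KO mice, without overlap. Their log2 ratio differed by 0.30 (exact permutation p = 0.0286, the smallest that 4 against 4 allow; adjusted, 0.0857), so this difference did not pass after adjustment. In the thymus it differed by -0.05 (exact permutation p = 0.762). The ratio of *Stat5b* to *Stat5a* differed by 0.05 in the thymus (exact permutation p = 0.563) and by 0.02 in the spleen (p = 0.800), so any shift in the balance of the STAT5 genes was smaller than the spread between mice.

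**Figure D4:**
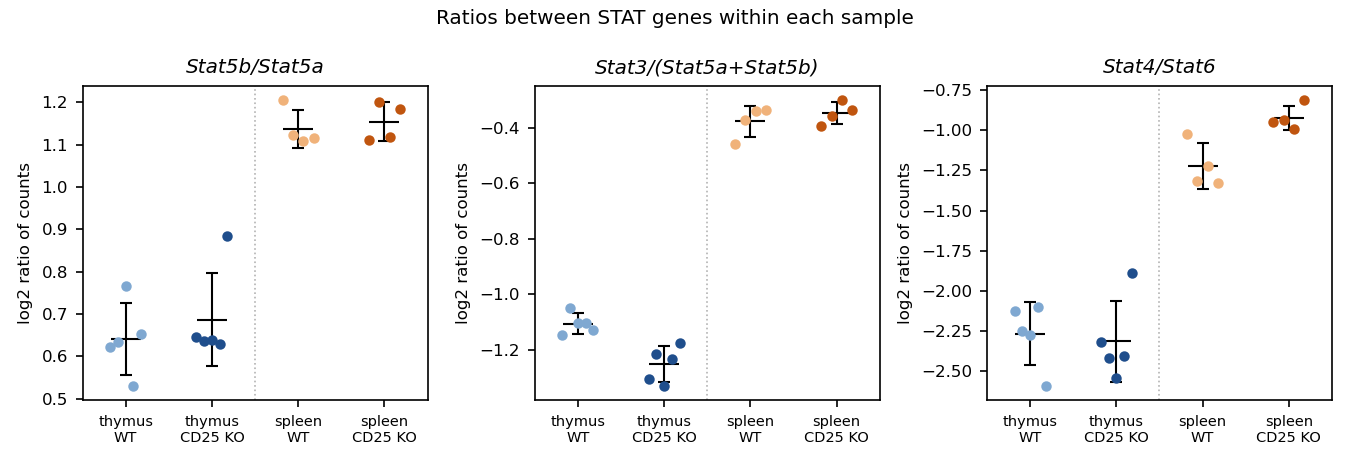
Log2 ratios of counts between STAT genes within each library, with 1 point per mouse and the mean and SD of each group. The *Stat5b* to *Stat5a* ratio separates the tissues and not the genotypes, whereas *Stat3* over the STAT5 genes is lower in all 5 thymic CD25 KO mice and *Stat4* over *Stat6* is higher in all 4 splenic CD25 KO mice than in their WT groups.

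The receptors and kinases upstream of the STATs moved in part. Of 21 cytokine receptor chains that signal through STATs, 19 were tested in the thymus, where 4 were lower and none higher, and 18 in the spleen, where 4 were lower and 1 higher. That is 21.1% of those tested in the thymus and 27.8% in the spleen, against 6.16% and 9.45% of all genes. As earlier results of these data were known when the receptors were listed, this comparison is a description only. In the thymus *Il2rb*, the IL-2 and IL-15 receptor β chain, was lower (645 ± 65.2 CPM in WT, 372 ± 70.3 in CD25 KO; log2 fold change -0.79, adjusted p = 0.00201), as were *Il10ra* (25.4 ± 2.30 and 6.96 ± 3.75 CPM; -1.86, adjusted p = 0.00266) and *Il9r*, at 3.37 ± 1.08 and 0.896 ± 0.423 CPM (-1.89). In the spleen *Il6ra*, the IL-6 receptor α chain that leads to STAT3, fell by 0.46 on the log2 scale (adjusted p = 4.98e-05), *Ifngr2* fell by 0.44 and *Il4ra*, the IL-4 receptor that leads to STAT6, fell by 0.40, while *Ifngr1* rose by 0.55 (adjusted p = 0.000237). The fit of all 18 libraries did not call *Il6ra* (adjusted p = 0.0236). *Il4ra* was also lower in the thymus (-0.46, adjusted p = 0.00213). The median of the receptors was -0.19 for thymic and -0.09 for splenic Tregs, against -0.0022 and -0.0065 over all genes.

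Of the 4 Janus kinases, *Jak2* was higher in splenic CD25 KO Tregs, at 303 ± 20.1 against 218 ± 6.68 CPM (log2 fold change 0.48, adjusted p = 2.15e-05), and none was called in the thymus, where 1 had an unadjusted p below 0.05 and DESeq2 called 1. The 7 partners and coactivators, among them *Irf9* and the acetyltransferase genes *Crebbp* and *Ep300*, were not called in either tissue by edgeR. In each tissue 1 of them had an unadjusted p below 0.05 and DESeq2 called 1. Over all genes DESeq2 called 2730 of 30028 in the thymus and 2118 of 29690 in the spleen. Of 17 inhibitors, 5 were lower and 1 higher in the thymus, and 3 were lower and 2 higher in the spleen (35.3% and 29.4%, against 6.16% and 9.45% of all genes). The list was chosen with earlier results of these data known, so these shares are a description only. *Cish*, *Socs1* and *Socs2*, feedback inhibitors that STAT5 itself induces, were lower in both tissues: *Socs2* fell by 3.20 on the log2 scale in the thymus, from 22.7 ± 3.52 to 2.43 ± 2.11 CPM, and by 0.98 in the spleen, from 35.8 ± 4.70 to 18.1 ± 2.11 CPM. The effect on *Socs2* differed between the tissues by 2.22 (adjusted p = 0.00163). The phosphatase gene *Ptpn11* (0.49) and *Socs5* (0.34) were higher in the spleen. In the fit of all 18 libraries 3 inhibitors were called in the spleen in place of 5, as *Socs2* (adjusted p = 0.0361) and *Socs5* (0.0191) were not. *Ptprc*, which encodes the phosphatase CD45, was higher in the thymus (0.54, adjusted p = 0.00889), and this was not called after GC correction (0.27, adjusted p = 0.0297) or without any 1 of WT mice 2–5 or CD25 KO mice 1–3 (adjusted p from 0.0115 to 0.0239).

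Most of the listed STAT5 target genes were lower in each tissue, and the STAT5 genes themselves were not called. Of 14 listed targets, 9 were lower in thymic and 10 in splenic CD25 KO Tregs, and none was higher, with median log2 fold changes of -0.77 and -0.50. These are 64.3% and 71.4% of the list, against 2.99% and 3.55% of all genes called lower. The paper lists *Foxp3*, *Myc*, *Cish*, *Socs1*, *Socs2* and *Lta* as reduced in CD25 KO Tregs of both tissues, from these same libraries. The paper also reports *Bcl2* as decreased in the spleen. These shares were thus in part known when the list was made, and their comparison with all genes is a description only. *Pim2*, a survival kinase gene, was not called at 0.04 in the thymus and 0.25 in the spleen, nor was *Bcl2* in the thymus (0.01). *Cish*, *Socs1*, *Socs2* and *Socs3* are also among the inhibitors. *Myc*, a driver of growth, went from 126.9 ± 5.45 to 65.2 ± 12.3 CPM in the thymus (-0.96, adjusted p = 0.000364) and from 101 ± 7.16 to 49.6 ± 3.73 CPM in the spleen (-1.02, adjusted p = 1.19e-07). *Bcl2*, which protects cells from apoptosis, fell by 1.01 in the spleen (adjusted p = 3.95e-08), and the difference between the tissues was -1.004 (adjusted p = 1.38e-06). *Lta*, which encodes lymphotoxin α, fell by 1.15 in the spleen, and *Foxp3* fell by 0.74 in thymic and by 0.55 in splenic Tregs.

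Of the target genes of STAT3, STAT4 and STAT6, 5 were called in the thymus and 11 in the spleen. Those called in the thymus were lower, and those called in the spleen were higher, apart from *Il4ra*. The called genes were largely different ones, and only *Il4ra* and *Nfil3* were called in both tissues. *Il4ra* was lower in both, so only *Nfil3* was called in opposite directions. Of all genes, 2.99% were called lower in the thymus and 5.90% higher in the spleen. The lists were made with earlier results of these data known. The paper, from these same libraries, reports *Ifng* and *Il4* as increased in peripheral CD25-deficient Tregs. The counts beside the shares of all genes are thus a description only. Of 10 STAT3 targets, 4 were higher in the spleen and none lower, led by *Il21*, a helper cytokine (1.53, from 3.78 ± 0.926 to 10.9 ± 2.67 CPM), *Bcl6* (0.83) and *Batf* (0.78), the latter both transcription factor genes. *Il21* was not called in the fit of all 18 libraries (adjusted p = 0.0179). In the thymus 1 of 9 tested, *Socs3*, which is also on the STAT5 list, was lower (-0.80) and none was higher, and DESeq2 and the fit of all 18 libraries each called 3. Of the STAT4 targets, 3 of 6 tested were higher in the spleen, *Ifng* (1.25, from 2.59 ± 0.429 to 6.18 ± 0.878 CPM), *Tbx21*, which encodes the Th1 factor T-bet (1.004, adjusted p = 6.17e-07), and *Il18rap* (0.48). *Il18rap* was not called in the fit of all 18 libraries (adjusted p = 0.0983) or without WT mouse 2 (0.0164) or CD25 KO mouse 4 (0.0138). The 3 NK cell markers moved with these genes, summing to 0.355–2.52 CPM in splenic WT and 2.93–5.60 CPM in splenic CD25 KO mice. Of them *Klrb1c* was called, at 1.11 ± 0.976 and 4.14 ± 1.13 CPM (log2 fold change 1.90, adjusted p = 0.00290), and *Klra8* and *Ncr1* had a count of 0 in all 8 splenic libraries. The myeloid marker *Lyz2* was higher too (5.98 ± 2.27 and 12.3 ± 1.61 CPM; 1.03, adjusted p = 0.00132), with the 5 myeloid markers summing to 15.9–22.1 CPM over WT and 20.96–27.7 CPM over CD25 KO mice. The part of these markers was not tested. In the thymus *Il18r1* (-0.73) and *Furin* (-0.62) were lower, and *Furin* was not called without WT mouse 2 or 5 or CD25 KO mouse 1 or 3 (adjusted p from 0.0130 to 0.0151), which left 1 gene. Of the STAT6 targets, 3 of 4 tested were higher in the spleen, *Il4* (1.31), *Nfil3* (1.04) and the Th2 factor gene *Gata3* (0.41), and *Il4ra* was lower. In the thymus *Nfil3* (-1.42) and *Il4ra* were lower. *Nfil3* was not called without any 1 of the 5 WT mice or CD25 KO mouse 1 or 3 (adjusted p from 0.0108 to 0.0206), nor with the mouse number as a block (0.0119), which left 1 gene. The effects differed between the tissues for *Batf* (1.26, adjusted p = 1.47e-06), *Gata3* (0.69, adjusted p = 0.000303), *Il18rap* (1.53, adjusted p = 0.000943) and *Nfil3* (2.47, adjusted p = 2.14e-05), and the test of the difference was not passed for *Il21*, *Ifng*, *Il4* or *Tbx21*. The effector Treg markers given beside *Stat4* moved the same way, and those of the thymus were given beside *Stat3*. Their part in these results was not tested.

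Among targets of STAT2 and IRF9, edgeR called none in the thymus and 1 of 16 in the spleen (6.25%, against 9.45% of all genes). None of the 16 interferon-stimulated genes was called by edgeR or DESeq2 in the thymus, where 1 had an unadjusted p below 0.05 and the median was 0.05. In the spleen *Oas1a*, which encodes an antiviral synthetase, was higher (0.38, from 24.7 ± 3.01 to 32.1 ± 0.993 CPM; adjusted p = 0.00320), and the median was 0.16. There 7 of the 16 had an unadjusted p below 0.05 and DESeq2 called 3, beside 2118 of 29690 over all genes. The share of all genes with an unadjusted p below 0.05 was not counted, so the 7 are a description only. The number called by edgeR was 2 with upper-quartile normalization, 6 with no filter on low counts, 3 without CD25 KO mouse 1, and 0 without WT mouse 3 or in the fit of all 18 libraries. *Oas1a* was not called in that fit (adjusted p = 0.202) or without WT mouse 3 (0.0143) or 4 (0.0137).

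**Figure D5:**
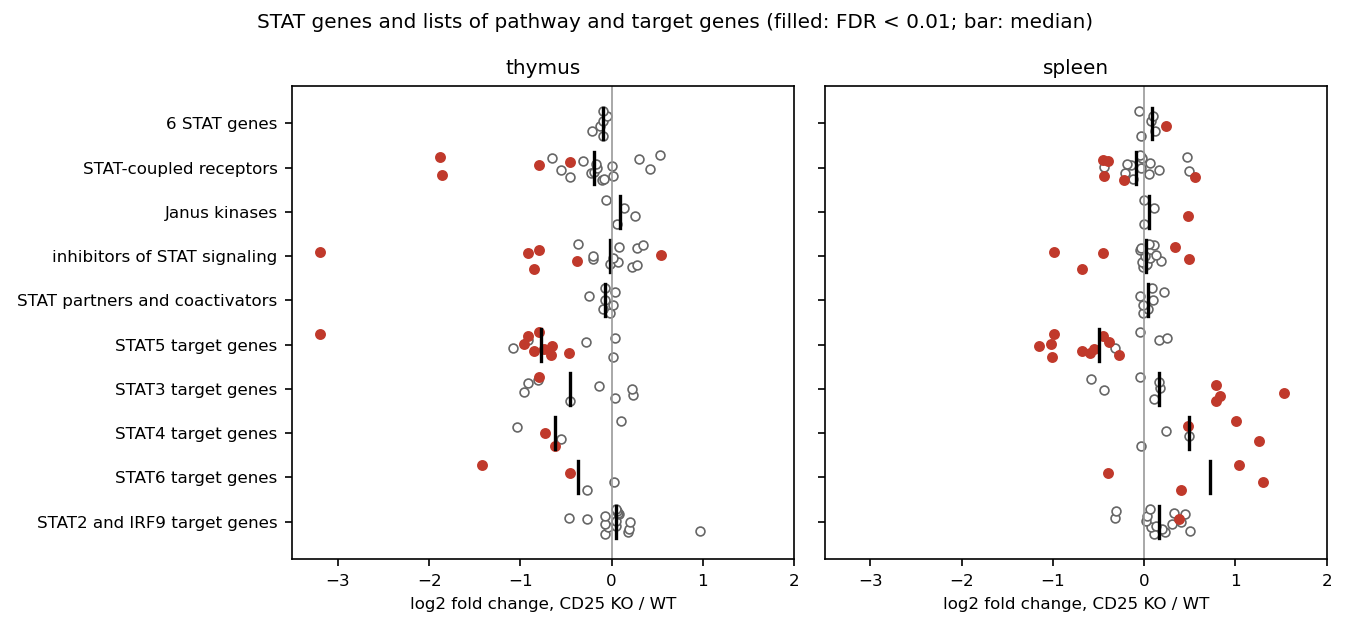
Log2 fold changes of CD25 KO against WT in each tissue for the 6 STAT genes and 9 lists of pathway and target genes, with 1 point per gene tested, filled where FDR < 0.01, and a bar at the median. The STAT genes lie between -0.22 and 0.24 in both tissues, and the called STAT5 targets lie to the left in both. The called targets of STAT3, STAT4 and STAT6 lie to the left in the thymus and, apart from *Il4ra*, to the right in the spleen. These called targets are largely different genes in thymus and spleen.

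The genes whose levels most resembled those of each STAT gene over the 18 libraries were found by the root mean square (RMS) difference of log2 CPM after centring each gene, over 18632 genes. *Stat2* was closest to *Ifi35*, itself an interferon-induced gene (RMS difference 0.0847), *Stat3* to *Ctdnep1* (0.0553), *Stat4* to *Lpxn* (0.138), *Stat5a* to *Snx18* (0.0861), *Stat5b* to *Ppp1r16b* (0.0608) and *Stat6* to *Cfdp1* (0.0578). The next 2 were *Dap3* and *Hsd17b4* for *Stat2*, *Psmd7* and *Ap2m1* for *Stat3*, *Anxa7* and *Traf1* for *Stat4*, *Dusp5* and *Kdm5b* for *Stat5a*, *Gatad2b* and *Cln8* for *Stat5b*, and *Ubr2* and *Fbrs* for *Stat6*. The patterns themselves had RMS sizes from 0.0817 for *Stat6* to 0.630 for *Stat4*. Among the genes nearest to *Stat5a*, its paralog *Stat5b* held rank 241 (RMS difference 0.2499), and the nearest STAT gene to *Stat3* was *Stat6*, at rank 172 (0.0959). The libraries share 2 tissues and mouse models, and closeness is a description only.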

How the data were processed

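RNA-seq libraries were made from sorted Tregs of 18 mice after removal of ribosomal RNA. Reads were aligned by the authors to GRCm38 with STAR 2.5.0b and assigned to GENCODE M13 genes with featureCounts 1.5.0. The authors deposited the counts per gene without normalization, and the strand setting and the handling of reads with several matches are not given in the sources used here. Groups were taken from the labels. Symbols, lengths and coordinates came from GENCODE M21, of the same build.

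Counts were analysed with edgeR 4.0.16 in R 4.3.3: TMM scaling, filterByExpr and the quasi-likelihood test within each tissue, with Benjamini-Hochberg adjustment over all genes tested and calls at FDR < 0.01. The SE is the absolute log2 fold change over the square root of F. Differences between tissues came from 1 fit of 18 libraries. Within-library ratios of raw counts were compared by two-sided exact permutation tests (scipy 1.17.1). DESeq2 1.42.0 and other settings served as alternatives, and the WT comparison between tissues was added after seeing the data. The authors state that littermates with WT CD25 served as controls for the knockout strains, without saying which of the 18 mice were siblings. The main fits therefore treat the mice as unrelated. Nothing in the sources used here says that mice of a group shared a preparation. On simulated counts with 2-fold changes in 200 genes, edgeR recovered 89.5% in the thymus (3 false calls among 16769 genes), 94% in the spleen (3 among 17282) and 78% for the difference (0 among 18175). The changed genes were drawn only from genes above a minimum expected count, and every STAT effect of CD25 KO was smaller than 2-fold. The recovery therefore does not describe how often changes of the size seen in STAT genes are found.

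Named genes are the 6 STAT genes, *Il2ra*, up to 3 called genes with the largest fold change per list, tissue and direction, and the 3 nearest patterns per STAT gene. *Foxp3*, *Irf9*, *Crebbp* and *Ep300* were named besides, as examples of their lists, and *Pim2*, *Klrb1c*, *Klra8*, *Ncr1* and *Lyz2* after their values were seen. The members, lists and tests were chosen with earlier results of these data known. A count of 3, taken as the floor of detection, was at most 0.174 CPM. This floor covers counting error only.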

Additional observations from a re-analysis of the deposited data

Results flagged for a closer look

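In thymic CD25 KO mouse 5 the log2 ratio of *Stat5b* to *Stat5a* counts was 0.88, far from the 4 other mice of the group, which lay between 0.63 and 0.65. In splenic WT mouse 1 the same log2 ratio was 1.20, and the 3 other WT mice lay between 1.11 and 1.12. A gap of this kind was looked for in 36 groups of values and found in 2, and chance alone flags about 1 group in 20.

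Of the STAT genes, *Stat3* had an effect of CD25 loss that differed between the tissues, by 0.35 on the log2 scale, spleen minus thymus (adjusted p = 0.00493). The 30 named pathway and target genes had been chosen for their fold changes within a tissue, which favours a difference between the tissues, so the count of 18 with such a difference, against 6.98% of all genes, is a description only. It was positive, that is, higher in the spleen, for the receptor genes *Il10ra* (1.92), *Il9r* (1.84), *Ifngr1* (1.03) and *Il2rb* (0.62), for the inhibitors *Socs2* (2.22), *Socs3* (0.77), *Ptpn11* (0.70) and *Socs1* (0.48), and for *Nfil3* (2.47), *Il18rap* (1.53), *Batf* (1.26), *Il18r1* (0.98), *Gata3* (0.69), *Bcl6* (0.61) and *Furin* (0.60). It was negative for *Bcl2* (-1.004), *Lta* (-0.48) and *Ifngr2* (-0.43). Tissue, age, treatment and mouse model cannot be told apart in these differences.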

How the results depend on the processing

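Leaving out each mouse in turn gave 371 to 1087 called genes in the thymus, 1099 to 1723 in the spleen and 817 to 1489 for the difference between tissues. It gave log2 fold changes in the thymus of -0.16 to -0.061 for *Stat2* and -0.28 to -0.053 for *Stat4*, and in the spleen of -0.086 to 0.0097 for *Stat2* and 0.22 to 0.28 for *Stat4*, and differences between tissues of 0.30 to 0.37 for *Stat3* and 0.30 to 0.54 for *Stat4*. The log2 ratios then differed by -0.0035 to 0.077 (thymus) and -0.00040 to 0.038 (spleen) for *Stat5b* over *Stat5a*, and by -0.15 to 0.012 (thymus) and 0.26 to 0.37 (spleen) for *Stat4* over *Stat6*. The spleen *Stat4* over *Stat6* ratio cannot reach p < 0.05 with 3 against 4 mice, and with medians it was 0.33 (exact permutation p = 0.0571). The thymic count was 371 without CD25 KO mouse 3, 380 without WT mouse 2, 401 without WT mouse 3, 406 without CD25 KO mouse 1 and 428 without WT mouse 5, and 2008 without CD25 KO mice 2 and 4, the highest in *Il2ra*. The splenic count was 1099 without WT mouse 3, and the count for the difference 817 without CD25 KO mouse 2 of the spleen.

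DESeq2 called 2730 genes in the thymus and 2188 for the difference, FDR < 0.05 called 3951, 3001 (spleen) and 3149 (difference), and the fit of all 18 libraries 2881 in the thymus and 795 in the spleen. Upper-quartile normalization gave 808 higher and 440 lower genes in the thymus, against 539 and 508. Thymic *Stat3* (-0.22) passed FDR < 0.05, DESeq2 (-0.22) and the fit of 18 libraries (-0.23). Correction for GC content gave -0.11 for thymic *Stat3*, changed the sign of thymic *Stat5a* (0.061), *Stat5b* (0.053) and *Stat6* (0.028) and of the differences of *Stat2* (-0.021) and *Stat6* (-0.055), and ended the calls of splenic *Stat4* (0.21) and of the *Stat3* difference (0.25). Upper-quartile normalization gave -0.021 for the *Stat6* difference and ended the *Stat3* call (0.27), and the fit of 18 libraries ended the splenic *Stat4* call (0.24). For these changes the cause was not tested. The 4 calls between WT tissues held with RLE, upper-quartile, DESeq2 and GC-corrected fits.

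Thymic mice with the same number deviated together with correlations of -0.18 to 0.11, so the numbers are not taken to pair them. With the mouse number as a replicate block, 209 genes were called in the thymus (245 with GC correction, where *Stat5a*, *Stat5b* and *Stat6* stood at 0.064, 0.052 and 0.024), no STAT gene was called, and *Stat3* over the STAT5 genes stayed at -0.15 with an exact sign-flip permutation p of 0.0625, the smallest that 5 pairs allow.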
